A study of Mus musculus with 6 samples.

Results

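The glucocorticoid-responsive genes of skeletal muscle were examined in gastrocnemius (GAS) muscles of Kvβ2 knockout (KO) and wildtype (WT) mice. They comprise *Nr3c1*, which encodes the glucocorticoid receptor, and 9 genes that the receptor induces in muscle (*Fkbp5*, *Tsc22d3*, *Klf15*, *Klf9*, *Mt1*, *Mt2*, *Zbtb16*, *Sgk1* and *Cebpd*). The 10 genes were picked by symbol from a table of 37979 genes, each symbol matched 1 entry, and all 10 passed the filter on low values. Kvβ2, the product of *Kcnab2*, is a cytoplasmic subunit of voltage-gated potassium channels. The KO mice carried the Kvβ2 null allele on both chromosomes in all tissues and came, like the WT mice, from crosses of heterozygous null parents. All were untreated males fed freely, from an age class of 14 to 20 weeks. The authors give the age of the sequenced mice as 20 weeks. Each genotype had 3 mice and 1 RNA-seq library per mouse, numbered 1, 7 and 8. Neither the labels nor the methods give an hour of tissue collection or a corticosterone level. Values of a genotype are written in the order of replicates 1, 7 and 8.

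Glucocorticoids are adrenal hormones that in rodents follow a daily rhythm and rise with stress and fasting. In the muscle fiber the hormone binds the receptor, which is held in the cytosol by HSP90 and its co-chaperones, and the bound receptor enters the nucleus and attaches to glucocorticoid response elements. The genes it induces there turn down the hormone signal, break down amino acids and protein, and buffer metals. Long exposure to the hormone causes atrophy, mainly of fast fibers, in muscles such as the GAS.

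Promoter windows from RefSeq on GRCm38.p6, 250 bases before to 50 bases after a start site, were matched for 7 of the 10 genes (all but *Nr3c1*, *Zbtb16* and *Cebpd*), with 14 windows in all because *Sgk1* has 6 and *Tsc22d3* 3. Of the *Sgk1* windows, the 1 with the full response element for the hormone is shown. The *Klf15*, *Mt1* and *Mt2* windows are shown for their 3 or more matches to a clock or metal element. The core ACANNNTGT, extended on both sides to the full palindromic glucocorticoid response element, was found in 1 window, that of *Sgk1* at chr10:21993640-21993939 (plus strand), at positions -189 to -175 from the start. The full element occurred in 0.00913% of the 32851 windows of all genes. In the *Sgk1* window the capitals mark this match:

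*Sgk1*: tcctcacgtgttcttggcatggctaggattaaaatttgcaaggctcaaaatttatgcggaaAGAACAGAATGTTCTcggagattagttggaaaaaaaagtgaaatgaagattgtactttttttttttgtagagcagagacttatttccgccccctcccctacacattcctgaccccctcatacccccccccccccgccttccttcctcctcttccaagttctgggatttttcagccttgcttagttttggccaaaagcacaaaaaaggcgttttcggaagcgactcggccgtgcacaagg

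By itself the core ACANNNTGT occurred in this window, in 1 other *Sgk1* window and in the *Mt1* window, and in 6.85% of all windows. The letters CACGTG, an E-box of the kind the clock proteins CLOCK and BMAL1 bind, occurred 3 times in the *Klf15* window (chr6:90462326-90462625, plus strand), and 0.0883% of all windows held 3 or more. *Fkbp5* and the *Sgk1* window above held 1 each, and 7.15% of all windows held at least 1. In the *Klf15* window the capitals mark the 3 matches:

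*Klf15*: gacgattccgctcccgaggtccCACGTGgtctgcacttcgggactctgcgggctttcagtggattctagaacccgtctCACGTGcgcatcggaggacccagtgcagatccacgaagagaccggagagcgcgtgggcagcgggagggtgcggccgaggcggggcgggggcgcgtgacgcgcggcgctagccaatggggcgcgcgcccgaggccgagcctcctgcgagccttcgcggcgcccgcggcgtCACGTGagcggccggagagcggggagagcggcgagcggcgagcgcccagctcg

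The metallothionein genes are regulated by metal through the short elements TGCACNC and TGCGCNC, which were searched on both strands. *Mt1* (chr8:94178839-94179138, plus strand) held 3 and *Mt2* (chr8:94172368-94172667, plus strand) held 4, where 1.97% and 0.517% of all windows held at least as many. The *Klf15* window and the *Sgk1* window at chr10:21994416-21994715 held 1 each, and 25.7% of all windows held at least 1. In the *Mt1* and *Mt2* windows the capitals mark the matches of either strand:

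*Mt1*: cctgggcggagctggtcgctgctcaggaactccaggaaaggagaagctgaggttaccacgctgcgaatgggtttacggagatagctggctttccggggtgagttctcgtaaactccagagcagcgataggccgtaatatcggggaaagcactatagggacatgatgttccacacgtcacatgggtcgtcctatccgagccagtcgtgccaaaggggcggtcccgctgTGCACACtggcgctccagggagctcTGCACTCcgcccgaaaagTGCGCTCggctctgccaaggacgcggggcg

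*Mt2*: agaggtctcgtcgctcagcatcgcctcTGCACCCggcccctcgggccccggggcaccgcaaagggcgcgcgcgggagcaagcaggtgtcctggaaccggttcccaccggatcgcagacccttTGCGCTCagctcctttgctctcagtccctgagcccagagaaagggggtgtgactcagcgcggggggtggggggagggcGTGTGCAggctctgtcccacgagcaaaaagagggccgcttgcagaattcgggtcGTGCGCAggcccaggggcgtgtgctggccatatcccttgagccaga

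A match describes the letters of the window and was not tested for binding. The windows of *Klf9* and *Tsc22d3* held none of these letters.

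By the steps that low FPKM values fall on, the libraries held 14940000 to 20830000 fragments, with every KO library less deep than every WT library. FPKM values are fragments per length of transcript and size of library, so levels can be compared between genes. *Kcnab2* was low, at 0.233, 0.10 and 0.11 FPKM in WT muscle, and was listed at 0 in KO libraries 1 and 8 and at 0.0151 FPKM in KO library 7, the library in which a single fragment per kilobase equals 0.0518 FPKM. Of the muscle fiber markers, *Myh4* was listed at 0 throughout. The summed level of the 7 fiber markers was 20243 to 29321 FPKM in WT and 33807 to 35140 FPKM in KO libraries, and that of the 3 red blood cell markers present in the table was 64.9 to 98.2 FPKM in WT and 113 to 228 FPKM in KO libraries. The summed satellite cell markers were at 0.665 to 0.745 FPKM in WT and 0.763 to 1.24 FPKM in KO libraries, while the summed leukocyte, endothelial, fibroblast, Schwann cell and tendon markers overlapped between the genotypes. The part of these cell types in the values of the 10 genes was not tested. Fat cell markers stood highest in KO replicate 7, as given beside the metallothioneins. In whole muscle, a change in the number of cells of a type and a change in RNA per cell cannot be told apart.

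Differences between genotypes were tested with limma on log2(FPKM + 0.1) over 12334 genes, with Benjamini-Hochberg adjustment. The 9 induced genes all had a higher mean in the KO mice and the receptor had a lower one, but 0 of the 10 had an adjusted p under 0.05, where 0.324% of all tested genes did (0.251% higher and 0.073% lower in the KO mice). With an unadjusted p under 0.05 and a higher KO mean there were 6 genes (*Klf15*, *Mt2*, *Mt1*, *Zbtb16*, *Cebpd* and *Klf9*), which was the case for 15.3% of all tested genes. For these same 6 genes every KO library lay above every WT library, as for 18.3% of all tested genes. The exact permutation p, two-sided, is then 0.1, the smallest that 3 against 3 allow. The median log2 fold change was 0.52 over the 10 genes and 0.010 over all tested genes, and 51.0% of all tested genes were above 0. Base composition bears on such values here. The exonic GC content of the 10 genes ran from 44.8% to 55.1%, with a median of 50.8% against 50.1% for all tested genes. After each library was corrected for its trend on GC content, the median over the 10 genes was 0.46, and 4 genes (*Klf15*, *Klf9*, *Mt2* and *Cebpd*) stayed above WT without overlap and under an unadjusted p of 0.05. Of all genes with known GC content, 8.14% then lay above and 9.16% below WT without overlap, 5.37% were higher and 5.43% were lower at an unadjusted p under 0.05, and 0.117% were called, against 0 of the 10. With limma's array weights 7 of the 10 genes had an adjusted p under 0.05, but so did 25.5% of all tested genes.

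**Figure D1:**
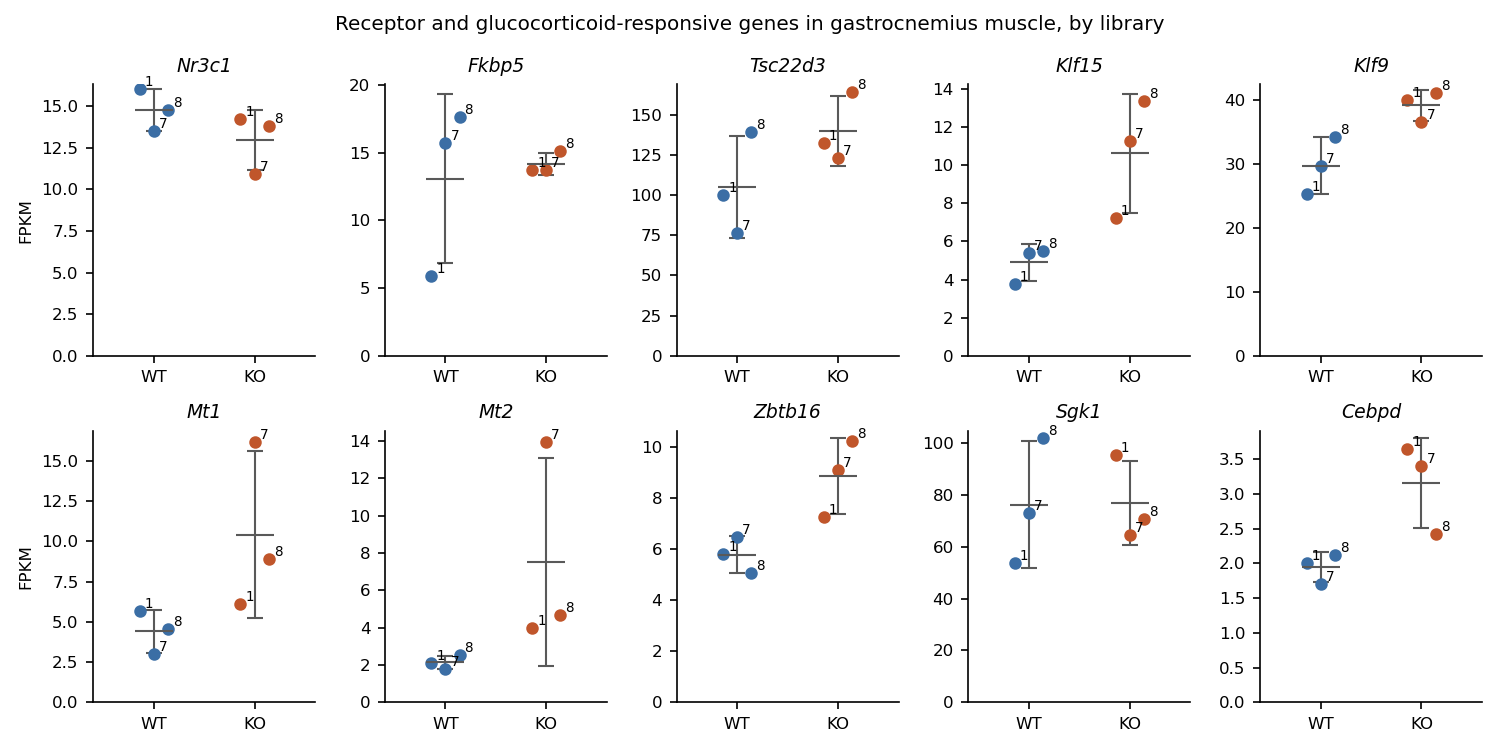
FPKM of the 10 genes in each library (points, with the replicate number beside each), by genotype, with the mean and SD of 3 libraries as bars. *Klf15*, *Klf9*, *Mt1*, *Mt2*, *Zbtb16* and *Cebpd* have all KO points above all WT points, while *Nr3c1*, *Fkbp5*, *Tsc22d3* and *Sgk1* overlap.

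The receptor itself was expressed at a middle level. *Nr3c1* (ENSMUSG00000024431) was at 16.0, 13.5 and 14.8 FPKM in the WT libraries against 14.2, 10.9 and 13.8 FPKM in the KO libraries. The genotypes overlapped, with the lowest value in KO replicate 7 and the highest in WT replicate 1. The means were 14.8 ± 1.27 FPKM (SD, n = 3) for WT against 13.0 ± 1.81 FPKM (SD, n = 3) for KO muscle, for a log2 fold change of -0.19 ± 0.14 (SE, adjusted p = 0.405). Exonic GC content was lowest for this gene among the 10, and after correction for it the log2 fold change turned to 0.042 (standard error 0.12).

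*Fkbp5*, a co-chaperone that lowers the affinity of the receptor for its hormone, had the widest range of the 10 genes among the WT mice on the log2 scale, at 1.55. It (ENSMUSG00000024222, chromosome 17, 28399094 to 28517527) measured 5.93, 15.7 and 17.6 FPKM in the WT libraries against 13.7, 13.7 and 15.1 FPKM in the KO libraries. The KO libraries were nearly level, and WT replicate 1 alone lay below all of them while WT replicates 7 and 8 lay above, at 2.65 and 2.97 times its level. The log2 fold change was 0.26 ± 0.38 (SE, adjusted p = 0.685) with all libraries, and it turned to -0.23 (adjusted p = 0.267) without WT replicate 1. The same library stood apart from the other WT libraries for the clock activator *Arntl*, at 1.84 FPKM against 11.7 and 10.5 FPKM, where the KO libraries were at 2.62, 4.18 and 3.80 FPKM. *Fkbp5* and *Arntl* were thus both lowest in WT replicate 1, and the part of the clock in the *Fkbp5* values was not tested.

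*Tsc22d3* encodes GILZ, a leucine zipper protein that carries much of the anti-inflammatory action of glucocorticoids, and it was the most abundant of the 10 genes. *Tsc22d3* (ENSMUSG00000031431, chromosome X, 140539528 to 140600659) measured 99.8, 76.5 and 139 FPKM in the WT libraries against 132, 123 and 164 FPKM in the KO libraries. WT replicate 8 reached into the range of the KO libraries. KO against WT, the log2 fold change was 0.44 ± 0.22 (SE, adjusted p = 0.244), the same 0.44 after correction for GC content, and 0.67 without WT replicate 8.

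*Sgk1*, a kinase of the AKT family that acts on ion transport and protects muscle mass, overlapped between the genotypes, and it is the gene whose window with the full response element is shown above. *Sgk1* (ENSMUSG00000019970, chromosome 10, 21882184 to 21999903) measured 53.6, 72.9 and 102 FPKM in the WT libraries against 95.2, 64.7 and 70.6 FPKM in the KO libraries. Both the lowest and the highest library were WT. The log2 fold change was 0.042 ± 0.25 (SE, adjusted p = 0.930), and it lay between -0.19 and 0.28 on leaving out single libraries.

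Both KLF transcription factors were higher in every KO library. KLF15 is a zinc finger protein, induced directly by the receptor, that drives the breakdown of branched-chain amino acids in muscle. *Klf15* (ENSMUSG00000030087, chromosome 6, 90462576 to 90475238) measured 3.79, 5.41 and 5.51 FPKM in the WT libraries against 7.23, 11.2 and 13.4 FPKM in the KO libraries. The lowest KO library was 0.39 above the highest WT library on the log2 scale. The means were 4.90 ± 0.968 FPKM (SD, n = 3) for WT against 10.6 ± 3.11 FPKM (SD, n = 3) for KO muscle, for a log2 fold change of 1.07 ± 0.25 (SE, adjusted p = 0.0758), the lowest adjusted p of the 10 genes. It was 0.76 (standard error 0.21) after correction for GC content and 0.89 to 1.32 on leaving out single libraries.

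*Klf9*, a KLF factor that follows both glucocorticoids and the clock, showed a smaller and more even difference. *Klf9* (ENSMUSG00000033863, chromosome 19, 23141226 to 23168134) measured 25.3, 29.7 and 34.1 FPKM in the WT libraries against 39.9, 36.5 and 41.1 FPKM in the KO libraries. The groups were apart by 0.10 on the log2 scale, between WT replicate 8 and KO replicate 7. KO against WT, the log2 fold change was 0.41 ± 0.13 (SE, adjusted p = 0.123), and 0.48 after correction for GC content.

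*Zbtb16*, which encodes the zinc finger repressor PLZF and is a sensitive target of the receptor in many tissues, was at 5.79, 6.48 and 5.06 FPKM in the WT libraries against 7.25, 9.07 and 10.2 FPKM in the KO libraries (ENSMUSG00000066687, chromosome 9, 48654297 to 48836222). The log2 fold change was 0.60 ± 0.16 (SE, adjusted p = 0.0936). Of the 6 genes without overlap it has the highest GC content, 55.1%, and its corrected log2 fold change was 0.28 (standard error 0.16), with the genotypes then overlapping.

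*Cebpd* encodes C/EBPδ, a transcription factor of the acute response to hormone and cytokines, and was the least abundant of the 10 genes. *Cebpd* (ENSMUSG00000071637, chromosome 16, 15887286 to 15891031) measured 2.01, 1.70 and 2.12 FPKM in the WT libraries against 3.64, 3.40 and 2.42 FPKM in the KO libraries. KO replicate 8 lay closest to the WT libraries. KO against WT, the log2 fold change was 0.66 ± 0.19 (SE, adjusted p = 0.102), 0.61 after correction for GC content and 0.54 to 0.83 on leaving out single libraries. About 71 to 137 fragments per library stood behind these values, and the gene 2310008H04Rik, at 0.428 to 0.787 FPKM, overlaps its end on the opposite strand. The library kit kept strand, but whether the quantification used it is not given in the sources used here.

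With all 6 libraries, the metallothioneins had the largest fold changes of the 10 genes. MT1 and MT2 are small cysteine-rich proteins that bind zinc and copper, and their genes are induced by metal as well as by glucocorticoids. They lie 5513 bases apart on the plus strand of chromosome 8, *Mt2* (ENSMUSG00000031762) at 94172664 to 94173568 and *Mt1* (ENSMUSG00000031765) at 94179082 to 94180327. *Mt2* was at 2.12, 1.81 and 2.51 FPKM in the WT libraries against 3.97, 13.9 and 4.65 FPKM in the KO libraries. *Mt1* was at 5.67, 3.02 and 4.54 FPKM in the WT libraries against 6.15, 16.2 and 8.90 FPKM in the KO libraries. For both genes KO replicate 7 stood far above the other libraries, at 3.50 times the level of KO replicate 1 for *Mt2*, and for *Mt1* KO replicate 1 lay 0.12 above WT replicate 1 on the log2 scale.

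The log2 fold change of *Mt2* was 1.54 (standard error 0.44, adjusted p = 0.0983), a ratio of means of 3.50, and that of *Mt1* was 1.15 (standard error 0.37, adjusted p = 0.117). Without KO replicate 7 they were 0.98 and 0.78, still the same direction. *Mt1* was then below *Klf15*, which stayed at 0.89 or more with each library left out. After correction for GC content *Mt2* and *Mt1* were at 1.28 and 0.86, and the libraries of *Mt1* overlapped. About 16 to 121 fragments per library lay behind *Mt2* and 46 to 237 behind *Mt1*, as upper values. They were taken over the whole mean transcript length, 450 bases for *Mt2* and 756 for *Mt1*. The depth estimate subtracted 150 bases from each length, so fewer fragments lay behind these short transcripts. There were more *Mt1* than *Mt2* FPKM in each library, with a ratio of 1.67 to 2.67 in WT and 1.16 to 1.91 in KO muscle.

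Fat cell genes, like the metallothioneins, were highest in KO replicate 7. The gene whose centred values over the 6 libraries came closest to those of *Mt2* was *Lipe*, the hormone-sensitive lipase of fat cells, with a root mean square difference of 0.16 on the log2 scale. *Lipe* was at 2.42, 2.003 and 2.36 FPKM in the WT libraries against 3.40, 13.5 and 5.38 FPKM in the KO libraries. All 7 fat cell markers had a higher mean in the KO mice, and none was at 0 in any library. There were 3 without overlap (*Cidec*, *Plin1* and *Cfd*), and 18.3% of all tested genes lay above WT in this way. *Adipoq*, *Lep*, *Pparg* and *Fabp4* overlapped, each with WT replicate 1 above KO replicate 1, whereas *Mt2* was lower in WT replicate 1 than in each KO library. Adiponectin (*Adipoq*) was at 11.4, 2.39 and 4.999 FPKM in the WT libraries against 9.86, 40.4 and 11.1 FPKM in the KO libraries. The summed markers were 446, 235 and 237 FPKM in the WT libraries against 304, 622 and 341 FPKM in the KO libraries. *Fabp4* made up most of this sum, with 409 FPKM in WT replicate 1, while *Cidec*, *Plin1* and *Cfd* were lower in each WT library than in each KO library. The part of fat in the metallothionein values was not tested.

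**Figure D2:**
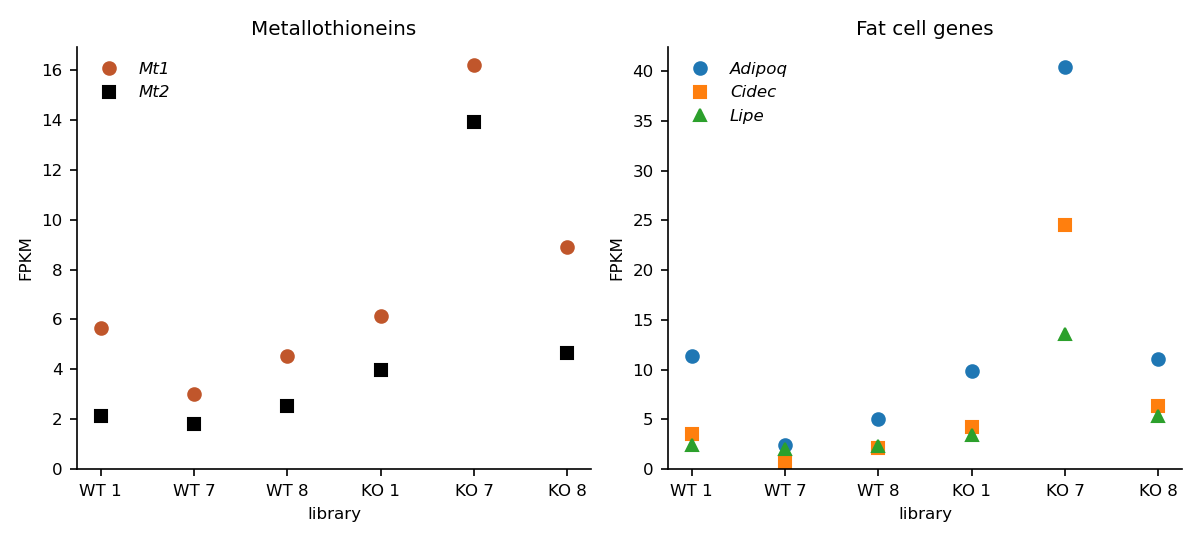
FPKM of *Mt1* and *Mt2* (left) and of the fat cell genes *Adipoq*, *Cidec* and *Lipe* (right) in each of the 6 libraries. KO replicate 7 is the highest library for all 5 genes, at 13.9 FPKM for *Mt2* and 40.4 FPKM for *Adipoq*.

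Levels ordered the 10 genes in nearly the same way in both genotypes, from *Tsc22d3* and *Sgk1* through *Klf9* to *Cebpd*. In WT muscle the means were 105, 76.2 and 29.7 FPKM for the first 3 and 1.94 FPKM for the last. *Tsc22d3* and *Sgk1* overlapped in WT but not in KO libraries, and *Nr3c1* and *Fkbp5* overlapped in both. *Klf15* stood at place 7 of 10 in WT and 6 of 10 in KO muscle, and from *Zbtb16* to *Mt1* neighbouring genes in the WT order overlapped.

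Over the 6 libraries, WT replicate 1 was under the gene's own mean for all 9 induced genes, with a median of -0.42 on the log2 scale. WT replicate 7 was above that mean for 1 of the 9, with a median of -0.38, and WT replicate 8 for 4, with a median of -0.21. KO replicates 1 and 7 were above the mean for 8 of the 9 genes each and KO replicate 8 for 7. The gene closest to *Klf9* among the 10 was *Tsc22d3*, with a root mean square difference of 0.23, and the pair *Mt1* and *Mt2* differed by 0.35. Among all tested genes the closest to the receptor was *Satb1* (0.030), to *Klf15* *Ankrd1* (0.11) and to *Klf9* *Dolpp1* (0.033), each over 6 libraries and given as a description. For the others it was *Gm6136* with *Fkbp5* (0.085), *Traf5* with *Tsc22d3* (0.11), *Itgb4* with *Mt1* (0.17), *Tssc4* with *Zbtb16* (0.071), *Vps33b* with *Sgk1* (0.055) and *Amhr2* with *Cebpd* (0.083).

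**Figure D3:**
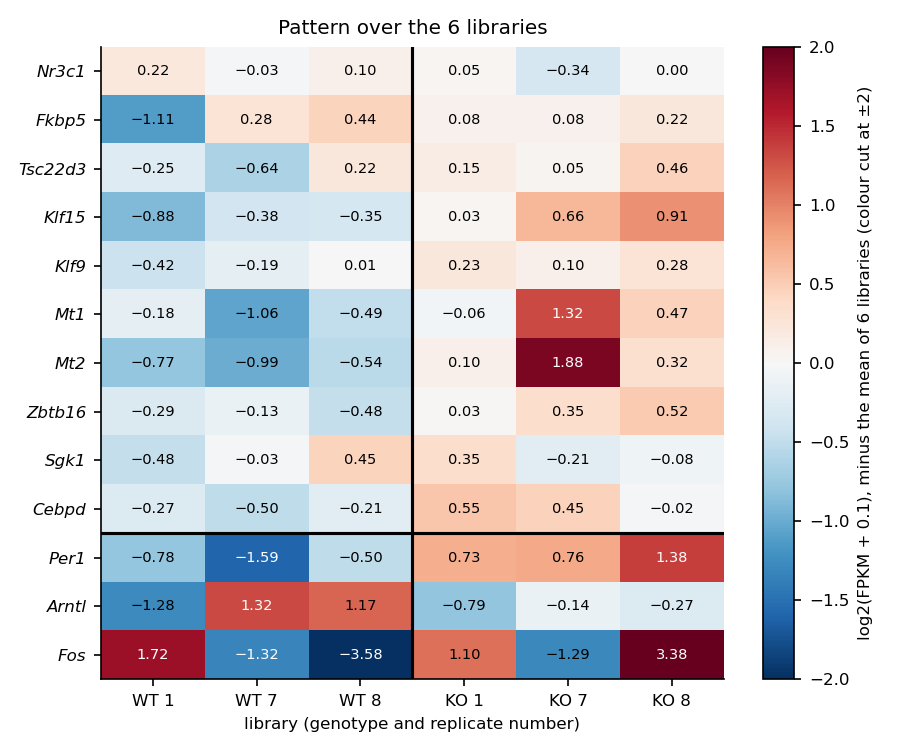
Centred log2(FPKM + 0.1) of the 10 genes in each library (columns), with the clock genes *Per1* and *Arntl* and the immediate early gene *Fos* below the line, where red is above and blue is below the mean of the 6 libraries. WT replicate 1 is blue for the 9 induced genes and is red for the receptor, and *Mt2* reaches 1.88 in KO replicate 7.

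**Figure D4:**
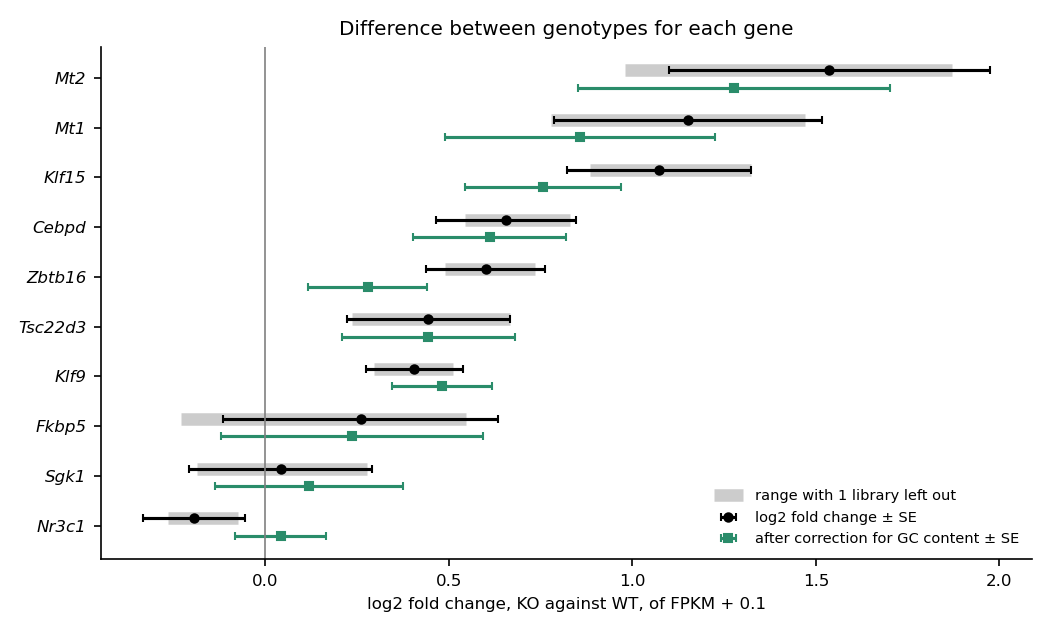
Log2 fold change of each gene, KO against WT, with its standard error (circles), the same after correction for GC content (squares), and the range on leaving out single libraries (grey bars). *Fkbp5* and *Sgk1* cross 0 when a library is left out, and *Klf15* stays at 0.89 or more.

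Genes that carry the hormone signal were looked at in gene lists, of which the receptor list and the list of relatives both hold *Fkbp4*, the list of induced genes and the relatives both hold *Cebpb*, and the induced and the clock genes both hold *Per1*. In the list of chaperones and coregulators of the receptor, 10 of 19 tested genes had a higher and 9 a lower mean in the KO mice, 0 were called by limma, 5 were higher and 1 lower at an unadjusted p under 0.05, and the median log2 fold change was 0.072, or 0.00998 after correction for GC content. At an unadjusted p under 0.05, 15.3% of all tested genes were higher and 10.9% were lower. *Ptges3*, the p23 co-chaperone of HSP90, was at 37.1, 33.3 and 33.5 FPKM in the WT libraries against 24.1, 20.2 and 26.1 FPKM in the KO libraries. All KO libraries lay below all WT libraries, as for 16.2% of all tested genes. KO over WT came to a log2 fold change of -0.57 ± 0.13 (SE, adjusted p = 0.0750), and -0.27 after correction for GC content. *Stub1*, a ubiquitin ligase of the chaperone system, had a log2 fold change of 0.61 (adjusted p = 0.0760) and of 0.00998 after the correction.

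Of the genes that supply the hormone within the muscle, 4 of 6 were tested and 0 had an unadjusted or adjusted p under 0.05. *Hsd11b1*, the enzyme that makes active corticosterone from its inactive form, was at 8.86, 8.73 and 7.76 FPKM in the WT libraries against 7.50, 7.93 and 8.01 FPKM in the KO libraries, and the genotypes overlapped. *H6pd*, which provides its NADPH, had a log2 fold change of 0.35 (adjusted p = 0.246), and the efflux pump gene *Abcb1a* had one of 0.055 (adjusted p = 0.892). *Hsd11b2*, the inactivating enzyme, was listed at 0 in 5 libraries and at 0.0305 FPKM in KO replicate 7.

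Among 25 other genes known to be induced by glucocorticoids, 20 had a higher and 5 a lower mean in the KO mice, and the median log2 fold change was 0.40, which was 0.22 after correction for GC content, 0.67 with array weights and 0.27 without WT replicate 8. Of these 0 were called by limma, and 6 were higher at an unadjusted p under 0.05, as for 15.3% of all tested genes. The same number lay above WT in every KO library, as for 18.3% of all tested genes. In the list 1 gene lay below WT in every KO library, as for 16.2% of all tested genes. The 3 with the lowest p were *Per1*, *Glul* and *Mknk2*. *Glul*, glutamine synthetase, was at 53.2, 44.7 and 68.4 FPKM in the WT libraries against 102, 113 and 152 FPKM in the KO libraries, with no overlap. KO over WT came to a log2 fold change of 1.14 ± 0.20 (SE, adjusted p = 0.0667), and 1.12 after correction for GC content. *Mknk2*, a kinase of the translation factor eIF4E, had a log2 fold change of 1.00 ± 0.19 (SE, adjusted p = 0.0667) and of 0.41 after the correction. *Per1*, a clock gene with a response element of its own, measured 4.99, 2.81 and 6.07 FPKM in the WT libraries against 14.3, 14.7 and 22.6 FPKM in the KO libraries. Every KO library was above every WT library, with a log2 fold change of 1.91 ± 0.30 (SE, adjusted p = 0.0667), and 1.33 after the correction.

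Enzymes of amino acid breakdown, several of which KLF15 controls, were tested for 9 genes. Of these, 5 had a higher and 4 a lower mean in the KO mice, and 0 were called by limma. An unadjusted p under 0.05 was found for 3, both before and after correction for GC content, all higher in the KO mice. The share of all tested genes higher in this way was 15.3% before and 5.37% after the correction. *Bckdha*, a subunit of the branched-chain ketoacid dehydrogenase, was at 13.5, 19.3 and 25.3 FPKM in the WT libraries against 37.9, 58.6 and 43.8 FPKM in the KO libraries. Its log2 fold change was 1.29 ± 0.25 (SE, adjusted p = 0.0700), and 0.75 after the correction. *Prodh*, proline dehydrogenase, had a log2 fold change of 0.93 (adjusted p = 0.0700, and 0.63 after the correction), and *Bcat2*, the mitochondrial branched-chain aminotransferase, one of 0.77 (adjusted p = 0.0750, and 0.40 after the correction). For these 3 genes and for *Klf15*, the lowest KO library exceeded the highest WT library, as for 18.3% of all tested genes. The 4 genes with a lower KO mean all overlapped between the genotypes. Their log2 fold changes were -0.19 for *Bckdhb*, -0.067 for *Dbt*, -0.12 for *Aldh6a1* and -0.15 for *Hibadh*. The part of KLF15 in the values of these enzymes was not tested.

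The metal response list held zinc transporters, a zinc sensor and other metallothioneins. Of its 5 tested genes, 3 had a higher and 2 a lower mean in the KO mice, and 0 had an unadjusted or adjusted p under 0.05. The zinc importers *Slc39a14* and *Slc39a10* had log2 fold changes of 0.12 (adjusted p = 0.658) and -0.23 (adjusted p = 0.453). For *Slc39a10* all KO libraries lay below all WT libraries, as for 16.2% of all tested genes, and the genotypes overlapped after correction for GC content. *Mt3*, another metallothionein, was at 0.617, 0.506 and 0.119 FPKM in the WT libraries against 1.21, 1.85 and 0.487 FPKM in the KO libraries, where KO replicate 8 overlapped the WT libraries (log2 fold change 1.33, standard error 0.60, adjusted p = 0.209).

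Close relatives of the 10 genes were split, with 7 of 14 tested genes higher and 7 lower, 0 called by limma, and a median log2 fold change of 0.086, which was -0.058 after correction for GC content and -0.058 without WT replicate 8. *Sgk3*, a kinase related to *Sgk1*, was at 2.53, 2.61 and 2.29 FPKM in the WT libraries against 1.58, 1.92 and 1.78 FPKM in the KO libraries, all KO libraries below all WT libraries (log2 fold change -0.47, adjusted p = 0.118). *Klf13*, a close relative of *Klf9*, had a log2 fold change of 0.40 (adjusted p = 0.151) and *Tsc22d4* one of 0.63 (adjusted p = 0.189). After correction for GC content, 0 of the 14 had an unadjusted p under 0.05, and the values were -0.11, 0.035 and 0.11 for *Sgk3*, *Klf13* and *Tsc22d4*. The genotypes then overlapped for each of these named genes.

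**Figure D5:**
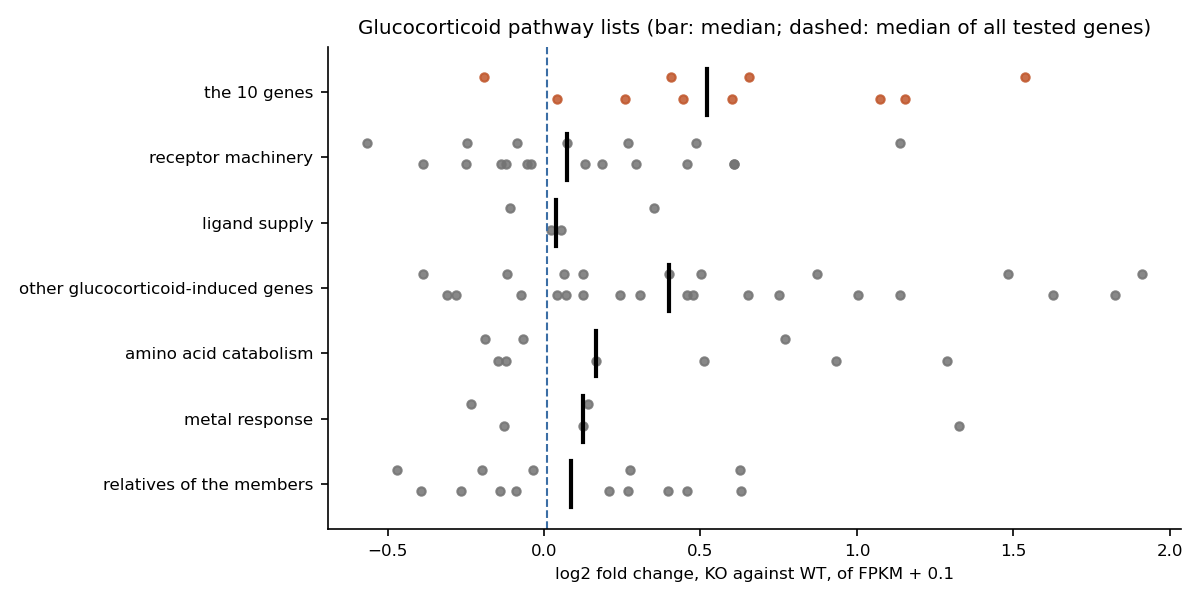
Log2 fold change, KO against WT, of each tested gene in the lists (points), with the median of each list (black bars) and of all tested genes (dashed line, 0.010). The 10 genes (median 0.52) and the other glucocorticoid-induced genes (median 0.40) lie further to the right than the receptor machinery (median 0.072).

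Clock and immediate early genes were looked at in the same way. Of 16 tested clock genes, 11 had a higher and 5 a lower mean in the KO mice, and 2 each way had an unadjusted p under 0.05. This was the case for 15.3% (higher) and 10.9% (lower) of all tested genes. After correction for GC content 1 clock gene each way remained under it, where 5.37% and 5.43% of all genes with known GC content did. All 9 tested immediate early and stress genes had a higher mean in the KO mice, with an unadjusted p under 0.05 for 3, or 2 after the correction. Their median log2 fold change was 1.06, which was 0.61 after correction for GC content, 0.61 with a pseudocount of 1 and 2.002 with array weights. In both lists 0 were called by limma. *Fos* overlapped widely, at 14.9, 1.73 and 0.281 FPKM in the WT libraries against 9.67, 1.77 and 47.3 FPKM in the KO libraries. The part of the clock, of handling and of stress before the tissue was taken in the values of the glucocorticoid-responsive genes was not tested.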

How the data were processed

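Reads of GAS muscle RNA from 3 WT and 3 KO mice were aligned by the authors with TopHat (genome GRCm38) and summarised with Cufflinks. The authors deposited 1 table of FPKM per gene and library. Versions of both tools and the annotation release are not given in the sources used here. No counts were used, so depth was estimated from FPKM steps of genes with 1 transcript, on which 92.4% to 96.6% of the low values were whole fragments within 0.15. Gene positions, GC content and approximate fragment numbers came from GENCODE vM21, and promoters from RefSeq. Fragment numbers used whole transcript lengths, where the depth estimate subtracted 150 bases, so they are too high, most so for short transcripts.

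Genotypes were compared by limma 3.58.1 (R 4.3.3) with a variance trend. Values were log2(FPKM + 0.1), a scale that understates the change of low genes, and the 12334 genes averaging 0.5 FPKM or more entered. All p-values were adjusted over these genes. Correction for GC content subtracted a loess curve of span 0.3 from each library, for 11985 genes. The fits were tested on simulated data. Named genes were the 10 genes, the 3 genes of lowest p in each pathway list, *Per1*, *Arntl* and *Fos*, the gene closest in pattern to each of the 10, and *Kcnab2*. The values of 1 gene under this rule are not reported here. The fat cell genes (except *Lipe*), *Hsd11b2*, the 4 lower genes of amino acid breakdown and the gene overlapping *Cebpd* were named after their values were seen. The 10 genes and the lists were chosen with earlier results of these data known. Each library is 1 mouse, and no 2 libraries shared more than 1 nonzero value among genes above 0 in all. The alternatives covered pseudocount, filter, scaling, array weights, variance model, GC content, gene length, a replicate block, genes listed at 0, and each library left out. Plots used matplotlib 3.10.9 (Python 3.11.15).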

Additional observations from a re-analysis of the deposited data

How the results depend on the processing

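The median log2 fold change of the 10 genes lay between 0.43 and 0.61 under all 21 alternatives, and 7 to 10 of the genes were higher in the KO mice. With limma's array weights 7 of the 10 were called, namely *Klf15*, *Mt1*, *Mt2*, *Klf9*, *Tsc22d3*, *Zbtb16* and *Cebpd*, and 0 were called under each other alternative. The array weights also gave 3147 called genes in all. The count of called genes, 40 as reported, was 25 and 11 with pseudocounts of 0.5 and 1, 22 with a mean of at least 0.1 FPKM, 20 without a filter, 19 without a variance trend, 14 after correction for GC content, 17 after correction for length, 1 without genes listed at 0, and 11 to 38 with each library left out. A block on the replicate number gave 13 called genes and 0 of the 10. The labels do not say whether the numbers pair the mice. Deviations of same-numbered libraries correlated at -0.025, -0.080 and 0.034, which cannot show whether those mice were littermates or processed together. The block changed no call on the 10 genes.

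Directions turned for 3 of the 10 genes. *Fkbp5* was at -0.054 with array weights and ranged from -0.23 to 0.55 with each library left out, *Nr3c1* was at 0.042 after correction for GC content, and *Sgk1* was at -0.057 after correction for length and ranged from -0.19 to 0.28 with each library left out. The adjusted p of *Klf15* ran from 0.0644 to 0.324 over the alternatives other than array weights, where it was 0.01001. Among other named genes, correction for GC content turned *Hsd11b1* to 0.049, *H6pd* to -0.086, *Slc39a14* to -0.049 and *Slc39a10* to 0.020. *Abcb1a* was at -0.22 with array weights and -0.016 after correction for length, and ranged from -0.098 to 0.20 with each library left out. Low fragment numbers limit *Mt2*, *Mt1* and *Cebpd*, and 3 mice per genotype limit all comparisons.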

Other observations

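Of the genes through which glucocorticoids drive muscle atrophy, *Fbxo32*, *Trim63* and *Foxo1* overlapped between the genotypes. They were picked after their values were seen and do not stand for all such genes. *Fbxo32*, the ubiquitin ligase atrogin-1, was at 57.2, 123 and 74.8 FPKM in WT and 54.7, 68.1 and 110.4 FPKM in KO replicates 1, 7 and 8 (log2 fold change -0.12, adjusted p = 0.846). *Trim63*, the ubiquitin ligase MuRF1, was at 53.1, 109 and 79.99 FPKM in WT and 78.7, 75.4 and 129 FPKM in KO replicates 1, 7 and 8 (log2 fold change 0.24, adjusted p = 0.633). *Foxo1*, the transcription factor upstream of both, had a log2 fold change of 0.31 (adjusted p = 0.480).

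Larger differences within the same list, also picked after their values were seen, were those of *Arrdc2*, *Irs2* and *Ddit4*. *Arrdc2*, an arrestin-domain gene, was at 8.30, 3.70 and 16.1 FPKM in WT and 19.8, 28.7 and 40.01 FPKM in KO replicates 1, 7 and 8. Its KO libraries all lay above its WT libraries, as for 18.3% of all tested genes (log2 fold change 1.83, standard error 0.50, adjusted p = 0.0950). After correction for GC content its log2 fold change was 1.27 and the genotypes overlapped. *Irs2*, an adaptor of the insulin receptor, had a log2 fold change of 1.63 (adjusted p = 0.0809) and of 1.20 after the correction. *Ddit4*, an inhibitor of mTORC1, overlapped, at 3.53, 2.67 and 16.1 FPKM in WT and 9.39, 15.3 and 24.1 FPKM in KO replicates 1, 7 and 8, because WT replicate 8 lay above KO replicates 1 and 7 (log2 fold change 1.48, adjusted p = 0.1998).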
